A study of Cyprinus carpio with 18 samples.

Results

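Translation initiation factors are the proteins that bring an mRNA, the initiator tRNA and the ribosome together at the start codon. The 136 genes described here are the protein-coding features of the common carp (Cyprinus carpio) table whose annotated product begins with the words for a eukaryotic (translation) initiation factor, out of 90808 features in all, 49264 of them protein-coding. By factor number they fall into 8 eIF1, 21 eIF2, 42 eIF3, 55 eIF4, 7 eIF5 and 3 eIF6 genes. Most products are annotated on several genes, and those genes are called copies below. Of the 136, 101 were matched in the RefSeq gene table, and 130 had enough reads to be tested.

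Whole carp embryos of the FFRC No.2 strain, wild type and obtained by natural spawning, were sampled at 6 stages: cleavage at 2 h after fertilization, blastocyst at 6 h, gastrulation at 12 h, organ formation at 20 h, hatching at 64 h, and larvae 1 day after hatching. Each stage had 3 libraries, made from rRNA-depleted total RNA with a strand-specific kit. Equal amounts of RNA were pooled per stage before library construction, and nothing in the labels says that the 3 libraries came from separate spawnings, so the p-values reflect how far these libraries differ from one another, and that spread could be technical. No treatment or mutant was compared. The question the series addresses is how transcript levels change over embryonic development.

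Initiation starts when eIF2, a GTP-binding protein with an alpha, a beta and a gamma subunit, carries the initiator tRNA to the small ribosomal subunit, helped by eIF1, eIF1A, eIF3 and eIF5. The mRNA is recruited through its cap, which eIF4E binds; eIF4G is the scaffold and eIF4A the RNA helicase of the same complex. In animal eggs the mRNA is made by the mother, and the embryo first lives on that store. Regulation of which stored mRNAs are translated, by cap-binding variants, by proteins that sequester eIF4E and by kinases that phosphorylate eIF2 alpha, is a known feature of oocytes and early embryos.

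Total counts ran from 16326813 to 43270557 per library. The stage labels went with 3 stage genes: btg4, a maternal mRNA decay adaptor, averaged 655 counts-per-million units (CPM) at cleavage and 7.11 at gastrulation. Transcripts of chrd, the BMP antagonist of the gastrula organizer, averaged 0.158 CPM at cleavage and 1013 at gastrulation, and cdx4, a posterior homeobox gene, was highest at gastrulation with 357. CPM here are counts scaled to a common library size after TMM scaling, a normalization that assumes that most features keep their level. The other 2 scalings, library totals and the denominators implied by the deposited RPKM values, moved the median change of all features from blastocyst to gastrulation from 0.75 to 0.10 and to -0.08 on the log2 scale. For this reason "rose" and "fell" are used of single genes only where the change was called under all 3 scalings, copies are compared by their share of the RPKM (reads per kilobase of gene, scaled to library depth) of their family, in which the library's denominator cancels, and shares are described without a test. A call is an adjusted p under 0.05 in edgeR's quasi-likelihood test, with Benjamini-Hochberg adjustment over 69265 features. The log2 changes, SEs and adjusted p-values given for single genes are those under TMM scaling. The size of a change depends on the scaling, and the SE does not include this.

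By stage means, initiation factor transcripts as a whole were at their lowest in the 2 earliest stages, while the stage of their highest level depended on the scaling. In TMM-scaled CPM their summed level was 4782 ± 114 CPM (SD, n = 3) at cleavage and 5012 ± 53.4 at the blastocyst stage, and 13764 ± 899 at gastrulation. It was 10448 ± 416, 9141 ± 720 and 7758 ± 360 CPM at organ formation, hatching and in the larva. In summed RPKM the stages were closer, at 1127 ± 82.9 at cleavage, 1045 ± 38.9 at the blastocyst stage, 1369 ± 246 at gastrulation and 1538 ± 148 at hatching. On that scale the mean ± SD ranges of cleavage and gastrulation overlapped. Under TMM scaling, of the 130 tested genes, 57, or 43.8%, had their highest mean at gastrulation, against 20.2% of all tested protein-coding genes. Only 7 genes, 5.38%, were highest in the larva, against 30.7% of protein-coding genes.

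From cleavage to the blastocyst stage 20 of the 130 genes were called higher and 19 lower under TMM scaling, against 15.8% and 6.52% of all features. These counts changed when single libraries were left out. Without cleavage library 2, blastocyst library 3 or any 1 of the 3 gastrulation libraries, between 36 and 44 genes were called higher, and without cleavage library 2 or 3, blastocyst library 1 or 3 or any gastrulation library between 3 and 11 were called lower. The counts over all features moved the same way. In these runs, with 71376 to 72412 features tested, 15690 to 16185 were higher and 2289 to 3405 lower. With all libraries 10962 and 4517 of 69265 were. Under all 3 scalings 3 rose, where 11% of all features did, and 19 fell, where 6.51% did.

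From the blastocyst stage to gastrulation 78 genes were called higher and 26 lower, against 44.4% and 22.3% of all features. Calls made under all 3 scalings numbered 53 higher and 26 lower, against 30% and 22.2%. From gastrulation to organ formation 37 were called higher and 53 lower, against 28.1% and 19.8%, and under all 3 scalings 37 and 30, against 28% and 13%. The 37 under TMM scaling became 23 without gastrulation library 3, where 16542 of 71682 features were called higher, against 19468 of 69265.

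At the last steps fewer genes were called. From organ formation to hatching 10 genes were called higher and 36 lower, against 17.4% and 12.2% of all features, but under all 3 scalings 9 and 3, against 16.7% and 4.14%. Without organ formation library 1, hatching library 1 or hatching library 3 the 10 became 6, and without organ formation library 2 or hatching library 1 or 2 the 36 became 22 or 23. Counts over all features dropped too, from 12086 to between 9939 and 9995 higher, and from 8427 to between 5970 and 6677 lower. From hatching to the larva 4 were called higher and 18 lower, against 5.32% and 6.13%, and 4 and 2 under all 3 scalings, against 4.91% and 2.71%. The 4 became 0 without larva library 3, 1 without hatching library 1 or 3 and 2 without hatching library 2. The 18 became 3 without hatching library 1 or 3, and between 8 and 11 without cleavage library 2 or 3, blastocyst library 3, gastrulation library 1 or larva library 1 or 3. Of all features, 3686 were higher with all libraries, 1992 without larva library 3, and 1725, 2447 and 1712 without hatching library 1, 2 or 3. Lower were 4248 with all libraries and 2488 and 2375 without hatching library 1 or 3. In the runs with 8 to 11, between 3179 and 3671 features were lower. From cleavage to larva 66 were called higher and 34 lower, against 58.5% and 22.5%, and 54 and 34 under all 3 scalings, against 53.4% and 22.4%. These shares are of all features. Of the 41841 tested protein-coding genes, 22559 were called higher and 12028 lower from cleavage to larva under TMM scaling. By step, 5216 were higher and 3970 lower at the blastocyst stage, 16978 and 11714 at gastrulation, and 13203 and 10634 at organ formation. At hatching 9723 were higher and 5694 lower, and in the larva 3329 and 3688. Over all 6 stages 123 of the 130 differed, where 93.7% of all features did.

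**Figure D1:**
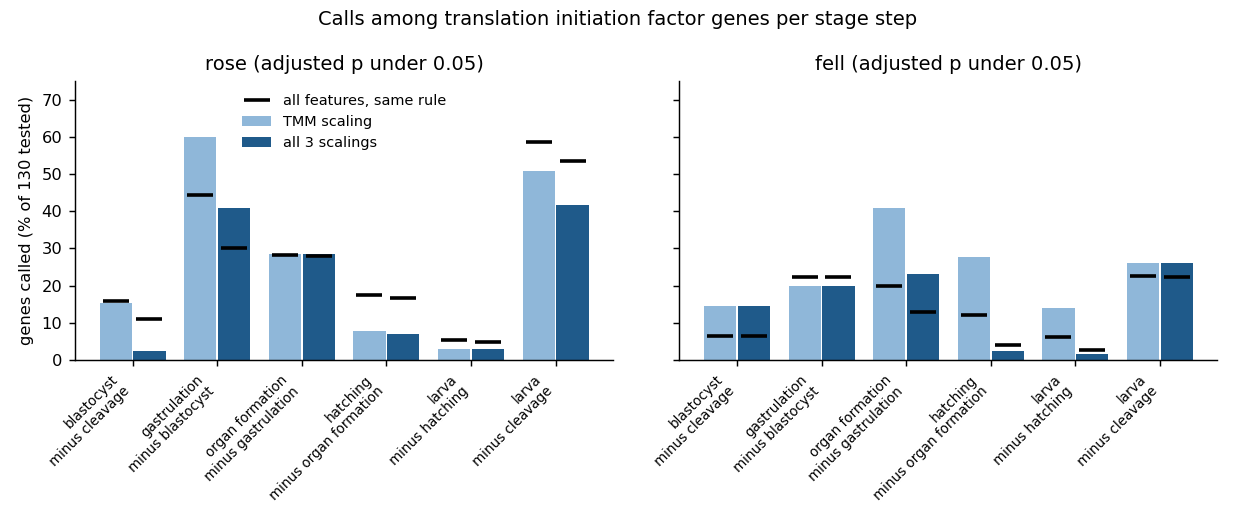
Percent of the 130 tested initiation factor genes called higher (left) and lower (right) in each comparison, under TMM scaling (pale bars) and under all 3 scalings (dark bars), with the percent of all features called by the same rule as black marks. At gastrulation 53 genes rose under all 3 scalings, above the mark at 30%, and at organ formation 30 fell, above the mark at 13%.

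The make-up of the initiation factor transcripts also changed. The 42 eIF3 genes held 19.2% ± 0.707 (SD, n = 3) of the summed RPKM of all 136 genes at cleavage, 16.8% ± 0.334 at the blastocyst stage, 29.4% ± 0.626 at gastrulation and 44.9% ± 0.748 at organ formation. The 55 eIF4 genes held 41.0% ± 0.764 at cleavage and 44.0% ± 0.521 at gastrulation, and 28.7% ± 0.336 at organ formation. The eIF1 genes went from 24.1% ± 1.34 at the blastocyst stage to 9.78% ± 0.528 at gastrulation. Shares of eIF2 stayed between 11.2% and 14.6% in all 6 stages.

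**Figure D2:**
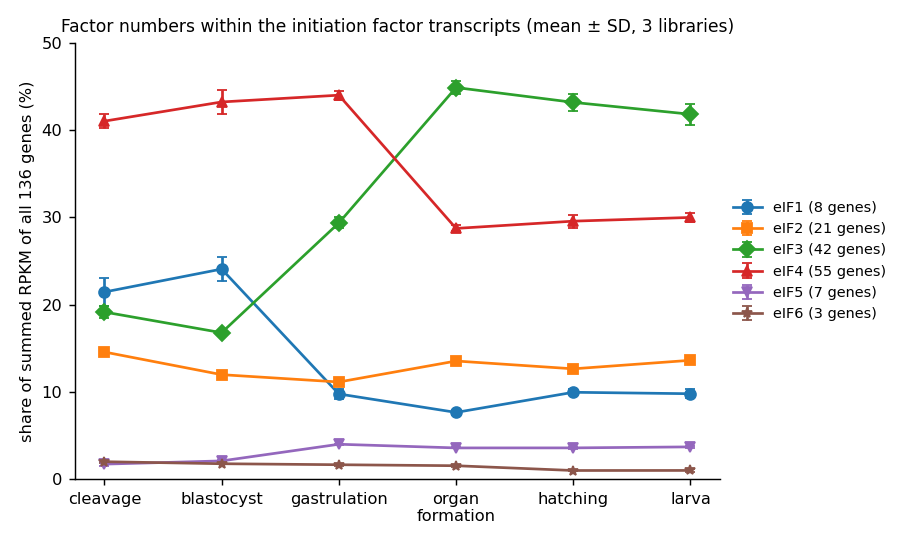
Share of each factor number in the summed RPKM of the 136 genes (percent, mean ± SD of 3 libraries) by stage. The eIF3 line crosses the eIF4 line between gastrulation, at 29.4% against 44.0%, and organ formation, at 44.9% against 28.7%.

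The cap-binding eIF4E genes exchanged their main type over development. They are annotated as eIF4E, eIF4E-1A, eIF4E-1B, type 2 and type 3. eIF4E-1B is known from zebrafish and frogs as a germline and early embryo form, and type 2 proteins, known as 4EHP in mammals, bind the cap without eIF4G. Of the RPKM of all eIF4E types, eIF4E-1B held 41.7% ± 0.492 (SD, n = 3) at cleavage, 32.7% ± 1.48 at the blastocyst stage, 8.28% ± 0.187 at gastrulation and 1.27% ± 0.0277 at organ formation. Its share was 0.452% ± 0.169 at hatching and 0.228% ± 0.0887 in the larva. eIF4E held 22.8% ± 0.629 at cleavage, 63.2% ± 3.07 at gastrulation and 39.1% ± 2.50 in the larva. eIF4E-1A went from 8.74% ± 0.875 at cleavage to 29.1% ± 1.45 at organ formation and 32.8% ± 0.881 in the larva.

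The copies of eIF4E-1B left the embryo at different times. LOC109083908 stood at 89.0, 96.3 and 115 CPM in the cleavage libraries and at 39.6, 44.2 and 53.3 at the blastocyst stage. It then stood at 2.93, 4.82 and 5.14 CPM at gastrulation, at 1.44, 1.39 and 0.893 at organ formation, at 0.844, 0.733 and 0.249 at hatching and at 0.155, 0.526 and 0.265 in the larva. No 2 successive stages up to organ formation overlapped. The gene fell by 1.13 (SE 0.21, adjusted p = 0.00054, edgeR quasi-likelihood test) on the log2 scale from cleavage to the blastocyst stage and by 3.38 (SE 0.24, adjusted p = 8.62e-11) to gastrulation. LOC109059863 stood at 53.8, 48.9 and 42.9 CPM at cleavage, at 47.4, 48.1 and 47.6 at the blastocyst stage and at 37.0, 37.2 and 43.0 at gastrulation. Under library totals and under RPKM denominators, this copy was lower in every gastrulation library than in any blastocyst library. Its share of eIF4E-type RPKM was 14.3% ± 0.691 at the blastocyst stage and 7.22% ± 0.219 at gastrulation. LOC109059863 was at 1.95, 2.18 and 2.79 CPM at organ formation, where it fell by 4.08 (SE 0.18, adjusted p = 1.11e-13). Its larval libraries held 0.232, 0.140 and 0.0882 CPM, which were 6, 4 and 2 reads, so larval levels of this copy rest on few counts. Within eIF4E-1B the share of LOC109083908 was 73.3% ± 4.66 at cleavage and 12.8% ± 2.76 at gastrulation. A further copy, LOC109072567, had 1 read in all libraries and was not tested.

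LOC109083908 was the only initiation factor gene with maternal-only expression as defined here, namely a cleavage mean of at least 1 CPM and less than 10% of it at every stage from gastrulation on. Its highest later stage held 4.30% of the cleavage mean. With the limit set from organ formation on, an alternative chosen after seeing the data, LOC109059863 joined it. With a limit of 25% there were 4 genes, the others being LOC109089599 and LOC109045292, annotated as eIF2-alpha kinase 3, and LOC109111518, an eIF4E type 2 gene, with highest later levels of 18.3%, 22.8% and 21.6% of cleavage. These later levels came after a lower mean at an earlier stage. LOC109089599 stood at 7.72% of its cleavage mean at gastrulation and 18.3% in the larva. LOC109111518 stood at 13.2% at gastrulation and 21.6% at hatching, and LOC109045292 at 18.2% at organ formation and 22.8% in the larva. In whole embryos, fewer cells of a type and less RNA per cell cannot be told apart.

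The other cap-binding genes divided by stage. LOC109100790 (eIF4E) stood at 27.7, 22.5 and 29.2 CPM at the blastocyst stage and at 117, 132 and 150 at gastrulation, with no overlap. It rose by 2.33 (SE 0.12, adjusted p = 3.2e-13, edgeR) at gastrulation and fell by 1.33 (SE 0.12, adjusted p = 4.91e-09) at organ formation, and its larval and cleavage levels of 31.4 ± 2.98 and 30.1 ± 2.12 CPM overlapped. The other eIF4E copy, LOC109100577, went the same way, with log2 changes of 1.44 and -0.96. Of the eIF4E-1A genes, LOC109088767 rose by 3.09 and LOC109098524 by 3.74 at gastrulation, whereas the most abundant, LOC109079155, was at 13.9 ± 0.905 CPM then and rose by 1.14 to 30.7 ± 2.04 at organ formation. LOC109072842 stayed at or under 1.11 CPM on average.

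Of the type 2 genes, LOC109111483 fell by 1.70 and LOC109111518 by 2.37 at gastrulation, to 5.49 ± 1.29 and 3.40 ± 0.344 CPM. These levels were 30.4% and 13.2% of their cleavage means, and the larval levels were 69.4% and 17.7%. At organ formation 2 of the 5 type 2 genes rose and 1 fell under all 3 scalings, against 28% and 13% of all features. LOC109092514, the most abundant type 2 gene, had 17.2 ± 1.53 CPM at the blastocyst stage and 32.2 ± 7.58 at gastrulation, a difference whose call depended on the scaling. LOC109092755 had 2.03 ± 0.897 and 6.55 ± 0.559 CPM at the same stages, and LOC109084218 had at most 1.00 CPM on average. Of the type 3 genes, LOC109065495 fell by 1.75 at gastrulation. Both type 3 genes rose at hatching under all 3 scalings, as did 16.7% of all features, LOC109048890 by 0.75 (SE 0.19, adjusted p = 0.00486, edgeR). LOC109065495 stood at 43.8% of its cleavage mean at organ formation and 65.7% at hatching. Type 3 held 3.10% ± 0.217 of eIF4E-type RPKM at gastrulation and 13.5% ± 1.34 in the larva.

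**Figure D3:**
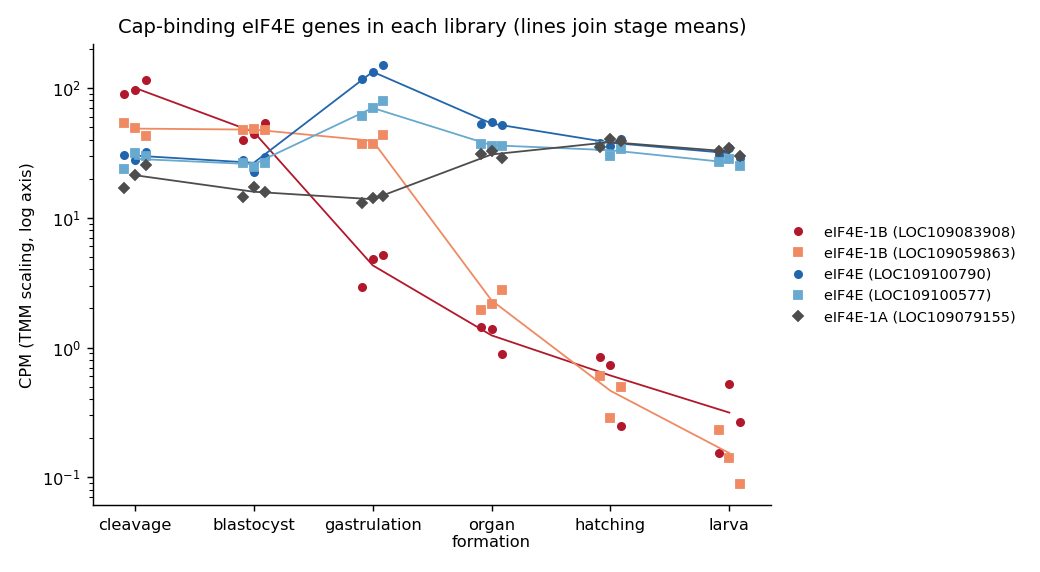
CPM (TMM scaling, log axis) of 5 eIF4E-type genes in each of the 18 libraries, with lines through stage means. LOC109083908 was down to 2.93 to 5.14 CPM by gastrulation, while LOC109059863 was at 37.0 to 43.0 CPM there and at 1.95 to 2.79 at organ formation. Under library totals and RPKM denominators LOC109059863 was lower in every gastrulation library than in any blastocyst library.

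eIF4E-binding proteins (4E-BPs) hold eIF4E away from eIF4G, and the eIF4E transporter (4E-T) is known as a partner of eIF4E in stored, untranslated mRNA. Of the 8 4E-BP genes under all 3 scalings, 1 rose at gastrulation, where 30% of all features did, and 2 rose and 2 fell at organ formation, where 28% and 13% did. From hatching to the larva 2 were called higher, against 4.91% of all features, but neither was called without larva library 3. In the larval libraries LOC109081906 had 97, 153 and 635 reads and LOC109081908 had 169, 186 and 361. LOC109081908, a 4E-BP3 gene, stood at 88.3, 107 and 85.5 CPM at gastrulation and at 6.58, 5.35 and 6.15 at organ formation. It fell by 3.96 (SE 0.25, adjusted p = 7.98e-11, edgeR) there, and from 22.3% ± 1.17 to 1.95% ± 0.219 of 4E-BP RPKM. Another 4E-BP3 gene, LOC109102208, rose by 2.00 at gastrulation and fell by 0.90 at organ formation, where LOC109102219, also 4E-BP3, rose by 1.23. eif4ebp2 rose at organ formation (0.80) and again at hatching (0.58), from 29.2 ± 4.08 CPM at gastrulation to 76.3 ± 6.89. The remaining genes annotated as 4E-BP2, LOC109046055, LOC109060159 and LOC109100665, had means of 46.6 to 105, 32.2 to 103 and 11.3 to 32.6 CPM. In RefSeq, LOC109060159 bears the symbol eif4ebp1, which differs from its product name. LOC109081906 had 12.4 ± 13.6 CPM in the larva, where its libraries differed too much to read a level.

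Of the 4E-T genes, LOC109047464 stood at 214, 188 and 194 CPM at cleavage, at 92.7, 102 and 108 at gastrulation and at 27.0, 26.0 and 25.4 in the larva. It fell by 0.72 (SE 0.10, adjusted p = 9.93e-07, edgeR) at gastrulation, by 1.33 at organ formation and by 2.93 from cleavage to larva. LOC109053091 had its highest mean at the blastocyst stage, 105 ± 1.89 CPM, and fell by 1.55 at organ formation and by 0.69 from hatching to larva. LOC109077149 had 74 reads in all and was not tested.

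The eIF2-alpha kinases phosphorylate eIF2 alpha, which lowers initiation in general. One of the 6 genes is annotated as kinase 1 (in mammals the heme-regulated kinase HRI) and the others as kinase 3 (PERK, the kinase of the endoplasmic reticulum stress response). Their summed level was 219 ± 12.6 CPM at cleavage, 149 ± 13.8 at the blastocyst stage, 44.8 ± 2.39 at gastrulation and 60.2 ± 1.74 in the larva. Under all 3 scalings 5 of the 6 fell at gastrulation and none rose, where 22.2% of all features fell and 30% rose. The kinase 1 gene, LOC109053625, stood at 39.98, 49.69 and 51.95 CPM at cleavage, at 25.2, 22.4 and 22.9 at the blastocyst stage and at 3.48, 3.09 and 4.71 at gastrulation. It was back at 16.1, 19.6 and 16.4 CPM at organ formation, below all cleavage libraries. It fell by 1.01 (SE 0.15, adjusted p = 3.66e-05, edgeR) and then by 2.63 (SE 0.17, adjusted p = 8.05e-12), and rose by 2.20 (SE 0.17, adjusted p = 4.38e-10) at organ formation. Among the kinase 3 genes, LOC109089599 fell by 3.12 at gastrulation, LOC109045292 by 1.75, LOC109082614 by 1.44 and LOC109057426 by 1.03. At organ formation 2 of the 6 kinase genes rose under all 3 scalings and none fell, against 28% and 13% of all features. Of the kinase 3 genes only LOC109089599 had a higher TMM-scaled mean there than at gastrulation, 12.8% of its cleavage mean against 7.72%. LOC109093912 had at most 1.53 CPM on average.

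eIF1 and eIF1A keep the scanning ribosome open until the start codon is met. The 4 genes annotated as eIF1 or eIF1b exchanged their main copy between the blastocyst stage and gastrulation. LOC109111336 (eIF1b) stood at 101, 96.7 and 110 CPM at the blastocyst stage and at 448, 564 and 451 at gastrulation. LOC109103875 (eIF1b) went the other way, from 203, 187 and 217 CPM to 42.4, 59.6 and 52.2, and neither gene's stages overlapped. The first rose by 2.25 (SE 0.12, adjusted p = 5.79e-13, edgeR) and the second fell by 1.98 (SE 0.12, adjusted p = 6.8e-12). LOC109103870, which lies on the same deposited sequence as LOC109103875, fell by 1.299, and the low-level LOC109094219 by 1.37. In shares of the family's RPKM, LOC109111336 went from 17.8% ± 0.522 to 76.2% ± 1.81 and then held 76.0% to 82.9%, and LOC109103875 went from 45.6% ± 0.792 to 10.4% ± 0.786.

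The 3 eIF1A genes, all on 1 deposited sequence, fell at organ formation, as did 13% of all features, by 1.22 (LOC109090043), 1.36 (LOC109090461) and 1.07 (LOC109090260). Their summed level was 242 ± 18.8 CPM at gastrulation and 100.4 ± 2.95 at organ formation. LOC109090043 alone had already fallen by 0.77 at gastrulation and rose by 0.60 at hatching. The gene for an eIF1A domain protein, eif1ad, fell by 0.84 at the blastocyst stage and by 1.91 from cleavage to larva.

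**Figure D4:**
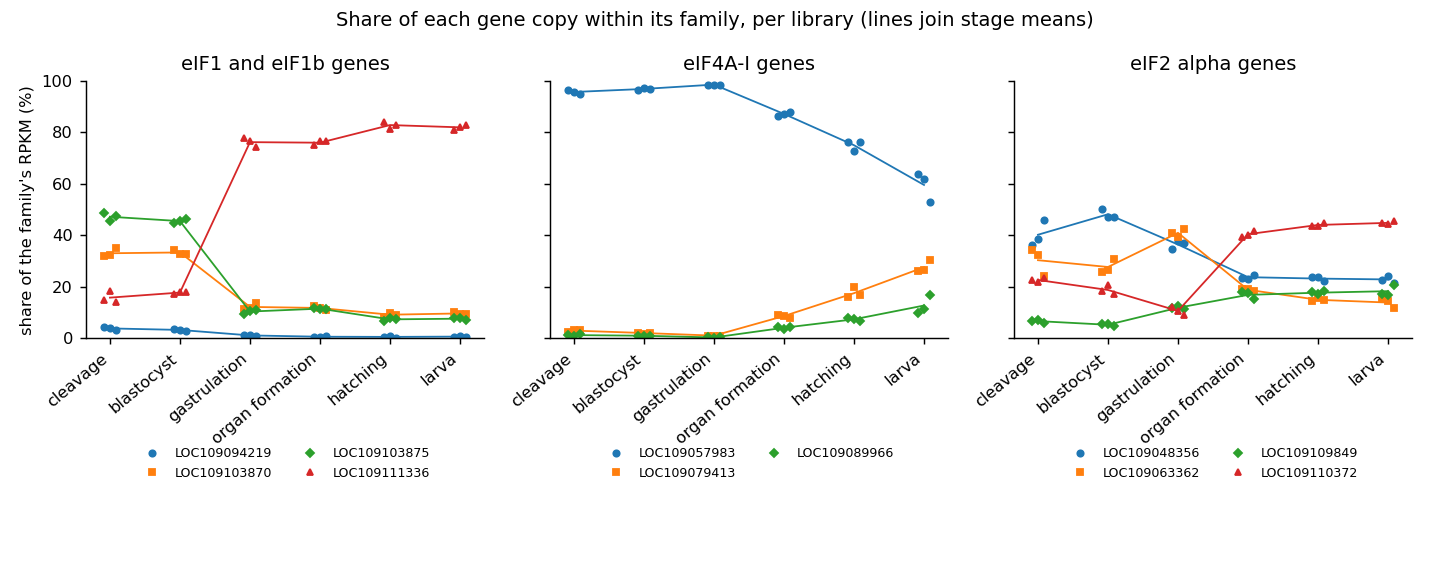
Share of each copy in the RPKM of its family (percent, each point 1 library, lines through stage means) for eIF1 and eIF1b, eIF4A-I and eIF2 alpha. LOC109111336 went from 17.8% of eIF1 RPKM at the blastocyst stage to 76.2% at gastrulation, LOC109110372 from 10.7% of eIF2 alpha RPKM at gastrulation to 40.5% at organ formation, and LOC109057983 from 98.6% of eIF4A-I RPKM at gastrulation to 59.6% in the larva.

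Both genes of the gamma subunit of eIF2 rose at gastrulation, as did 30% of all features. LOC109070641 (gamma) stood at 46.1, 46.0 and 37.9 CPM at the blastocyst stage and at 218, 253 and 195 at gastrulation, and rose by 2.35 (SE 0.12, adjusted p = 2.58e-13, edgeR). The other gamma gene, LOC109049379, rose by 3.09, and the main beta gene, LOC109105978, by 1.60. Of the 3 beta genes, it was the only 1 that rose there under all 3 scalings. The 4 alpha genes moved apart. LOC109110372 stood at 27.8, 25.2 and 21.0 CPM at gastrulation and at 106, 116 and 113 at organ formation, where it rose by 2.18 (SE 0.12, adjusted p = 2e-12). LOC109109849, on the same deposited sequence, rose by 2.39 at gastrulation and by 0.76 at organ formation. LOC109063362 rose by 1.76 at gastrulation and fell by 0.87 at organ formation. LOC109048356 held 48.2% ± 1.91 of eIF2 alpha RPKM at the blastocyst stage and 22.9% ± 1.31 in the larva, whereas LOC109110372 held 18.8% ± 1.72 and 44.9% ± 0.705.

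eIF2B recharges eIF2 with GTP, and its alpha and delta subunits are members here. eif2b1 (alpha) rose by 1.52 at gastrulation, to 48.9 ± 4.56 CPM, while eif2b4 (delta) was at 21.2 ± 2.12 CPM there and rose by 0.59 at organ formation. The RPKM of alpha over both was 48.8% ± 6.05 at the blastocyst stage and 74.0% ± 0.710 at gastrulation. eif2d, which in mammals can deliver initiator tRNA without eIF2, fell by 0.70 at gastrulation and rose by 0.98 at organ formation. eif2a had 41.3 ± 0.967 CPM at the blastocyst stage and 104 ± 20.6 at gastrulation, called higher under TMM scaling and library totals but not under the RPKM denominators. Second copies of both, LOC109086200 (eIF2D) with 10 reads in all and LOC109072988 (eIF2A) with at most 1.46 CPM, had few reads.

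eIF3 is the largest initiation factor, a complex of subunits a to m that bridges the small ribosomal subunit and eIF4G. Of its 41 tested genes, 23 rose and 4 fell at gastrulation under all 3 scalings, where 30% of all features rose and 22.2% fell. At organ formation 16 rose and 3 fell, against 28% and 13% of all features. From cleavage to larva 24 rose and 4 fell, against 53.4% and 22.4%, so the share that rose over the whole series was near that of all features. eif3f stood at 10.02, 10.01 and 9.268 CPM at the blastocyst stage and at 145, 153 and 160 at gastrulation, and rose by 3.97 (SE 0.12, adjusted p = 1.36e-16, edgeR), the largest rise among the genes with at least 5 CPM at the later stage of that step after LOC109073986 of eIF4A-II. LOC109082233 (eIF3d) stood at 24.7, 27.0 and 30.0 CPM and then at 324, 329 and 271, and rose by 3.498 (SE 0.12, adjusted p = 5.81e-16). eif3m rose by 3.48, LOC109081271 (eIF3g) by 3.41 and LOC109076390 (eIF3d) by 2.87.

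eif3i rose at both steps. It stood at 46.1, 48.1 and 45.1 CPM at the blastocyst stage, at 320, 345 and 349 at gastrulation and at 491, 542 and 485 at organ formation, and the stages did not overlap. Its changes were 2.86 (SE 0.12, adjusted p = 5.4e-15, edgeR) and 0.58 (SE 0.11, adjusted p = 0.000108). The eIF3e genes LOC109106132 and LOC109105417 rose at organ formation, by 0.92 and 1.87, while LOC109111847, the main gene of the other annotated eIF3e form, held 51.7% ± 1.17 of eIF3e RPKM at gastrulation and 23.4% ± 2.20 in the larva.

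Of the most abundant copy of each of the 13 eIF3 subunits, 12 were called higher and 1 lower at gastrulation under TMM scaling, against 44.4% and 22.3% of all features, with a median change of 1.90 against 0.75 for all features. The exception was LOC109059135 (eIF3a), at 13.2, 13.5 and 22.7 CPM at the blastocyst stage and 7.16, 4.33 and 4.26 at gastrulation. It fell by 1.67 (SE 0.25, adjusted p = 3.86e-06, edgeR). Per length, the 5 genes annotated as eIF3a summed to 2.65 ± 0.621 RPKM at gastrulation, against 42.5 ± 8.59 RPKM for the 3 genes of eIF3b. Another eIF3a gene, LOC109087630, rose by 1.57 at gastrulation and fell by 1.58 at organ formation. LOC109059135 was taken as most abundant by mean RPKM, 2.20 from 4999 reads, and had no RefSeq match. LOC109087630, matched in RefSeq as eif3s10, had 0.566 RPKM from 5545 reads. The exception thus rests on which copy stood for eIF3a. The 12 higher calls depend on the same choice, which was made by mean RPKM over the same 18 libraries. It could favour copies that were higher from gastrulation on. All features were not picked in this way, so the comparison with them is not like for like. The 12 calls also include LOC109068004 (eIF3j), whose call depended on the scaling. None of the 4 eIF3j genes rose at gastrulation under all 3 scalings. LOC109100868 (eIF3a) had 7.78 ± 6.68 CPM at organ formation, with libraries too far apart to read a level.

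Both genes of the J-B form of eIF3j, a loosely bound subunit, fell at gastrulation, as did 22.2% of all features. LOC109093118 fell by 0.99 and LOC109093116 by 0.83. At organ formation 3 of the 4 eIF3j genes rose under all 3 scalings and none fell, against 28% and 13% of all features. LOC109051025, a J-A gene, had 35.3 ± 3.32 CPM at gastrulation, 65.2 ± 4.63 at organ formation and 35.5 ± 5.31 at hatching. LOC109070447, an eIF3b gene, fell by 2.18 at gastrulation, to 0.493 ± 0.284 CPM, and reached 5.09 ± 0.177 in the larva. LOC109056986 (eIF3h) had 30.3 ± 7.57 CPM at gastrulation and 62.57 ± 11.02 at organ formation. The eIF3m copies LOC109056698 and LOC109077442 held 24.8% ± 3.11 and 30.2% ± 1.27 of eIF3m RPKM at cleavage and 2.46% ± 0.660 and 4.43% ± 0.735 in the larva, where eif3m held 93.1% ± 1.32.

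**Figure D5:**
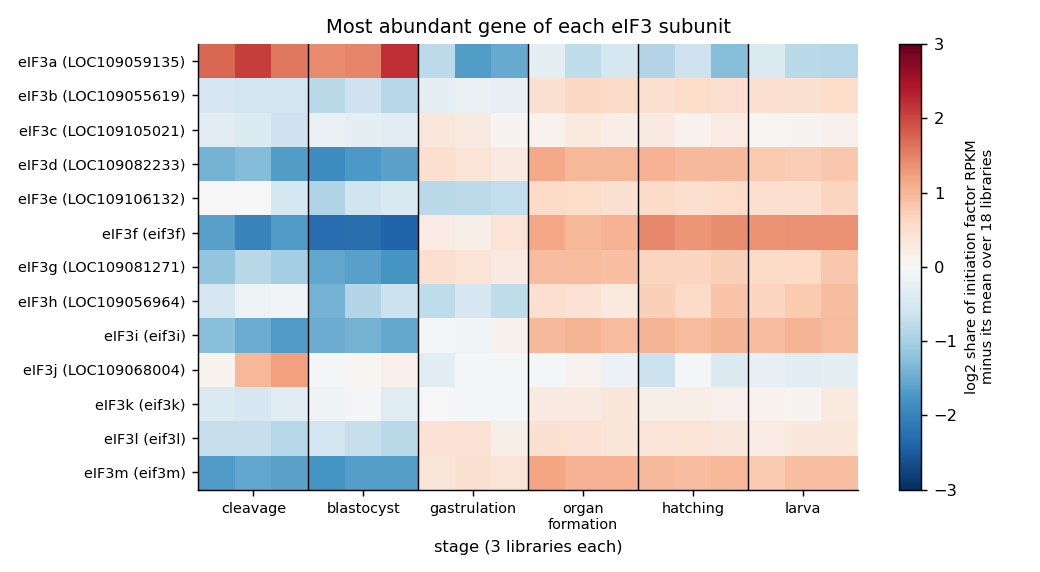
Most abundant gene of each eIF3 subunit in the 18 libraries, as log2 of its share of the RPKM of all 136 genes minus the gene's mean over libraries (color scale, red high). The row of eif3f averages -2.31 at the blastocyst stage and 1.36 in the larva, and LOC109059135 of eIF3a runs the other way, from 1.69 to -0.70. Rows were picked by mean RPKM, and another eIF3a gene, LOC109087630, not shown, rose at gastrulation.

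eIF4A unwinds the 5′ leader of the mRNA, and eIF4A-III, a relative, is a core part of the exon junction complex. LOC109057983 (eIF4A-I) stood at 223, 219 and 206 CPM at the blastocyst stage, at 777, 950 and 794 at gastrulation and at 308, 361 and 321 at organ formation. It rose by 1.96 (SE 0.13, adjusted p = 1.17e-11, edgeR) and fell by 1.35 (SE 0.13, adjusted p = 8.82e-09). LOC109079413 (eIF4A-I) stood at 19.0, 24.7 and 19.7 CPM at gastrulation, at 76.9, 86.2 and 68.6 at organ formation, at 141, 158 and 157 at hatching and at 194, 210 and 251 in the larva, with no overlap between them. It rose by 1.87 and 0.98 at organ formation and hatching, and LOC109089966, the remaining eIF4A-I gene, rose by 2.46 and 0.82. By the larva LOC109057983 held 59.6% ± 5.99 of eIF4A-I RPKM, LOC109079413 27.6% ± 2.35 and LOC109089966 12.7% ± 3.65.

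The 4 eIF4A-II genes all rose at gastrulation under all 3 scalings, as did 30% of all features, LOC109057979 by 1.99 and LOC109073986 by 4.07. Both abundant eIF4A-III genes rose at gastrulation, as did 30% of all features, and fell at organ formation, as did 13%. LOC109057469 rose by 1.57 and fell by 1.71, and LOC109057471 rose by 1.51 and fell by 2.18. eIF4A-III was summed at 791 ± 108 CPM at gastrulation and at 203 ± 18.3 at organ formation.

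The abundant genes of the scaffold eIF4G differed by type, but the 2 tested eIF4G1 genes also differed from each other. LOC109079795 (eIF4G1), at 3.48 CPM at cleavage, had its highest mean at hatching. It was called under all 3 scalings neither at gastrulation nor at organ formation. LOC109096961 (eIF4G1) stood at 162, 136 and 125 CPM at cleavage, at 251, 264 and 245 at the blastocyst stage, at 642, 775 and 637 at gastrulation and at 299, 284 and 288 at organ formation. It rose by 0.84 (SE 0.10, adjusted p = 2.21e-06, edgeR) and 1.43 and fell by 1.24, and was 1 of the 3 genes that rose at the blastocyst stage under all 3 scalings. LOC109110573 (eIF4G2, a form that does not bind eIF4E in mammals) averaged 307 ± 25.5 CPM at the blastocyst stage and 1362 ± 89.8 at gastrulation. It rose by 2.15 and fell by 1.34, and its partner copy LOC109110111 rose by 1.79 and fell by 0.93. Of the 6 tested eIF4G3 genes, none rose and 2 fell at gastrulation under all 3 scalings, where 30% and 22.2% of all features did. At organ formation 5 rose and none fell, against 28% and 13%. LOC109050304 rose by 1.21 at organ formation and by 0.67 at hatching, LOC109083215 by 1.35 and LOC109050298 by 0.61 at organ formation.

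eIF4B and eIF4H stimulate eIF4A. LOC109053352 held 80.1% ± 0.687 of eIF4B RPKM at cleavage and 63.9% ± 0.978 in the larva, and fell by 0.82 at organ formation. LOC109048813 (eIF4B) fell by 0.44 (SE 0.14, adjusted p = 0.0101, edgeR) at gastrulation. In the edgeR test of any difference among the 6 stages it was not called (adjusted p = 0.0525). eif4b held 5.96% ± 0.242 of eIF4B RPKM at cleavage and 20.1% ± 0.617 in the larva. LOC109113226 (eIF4H) rose by 1.88 at gastrulation.

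eIF5 triggers GTP hydrolysis on eIF2, and all 4 of its genes rose at gastrulation, as did 30% of all features. LOC109057693 stood at 34.6, 28.3 and 37.8 CPM at the blastocyst stage and at 277, 303 and 299 at gastrulation, and rose by 3.13 (SE 0.11, adjusted p = 1.11e-15, edgeR). LOC109057695 rose by 2.27, LOC109103841 by 2.34 and LOC109103838 by 3.01. LOC109103838 had already risen by 1.23 at the blastocyst stage. Both genes of eIF5A, better known as an elongation factor, fell at gastrulation under all 3 scalings, as did 22.2% of all features. Its main gene here, LOC109049186, stood at 5.47, 5.22 and 5.95 CPM at the blastocyst stage, at 2.25, 1.95 and 2.67 at gastrulation and at 11.8, 12.5 and 12.6 at organ formation. It fell by 1.27 (SE 0.17, adjusted p = 1.28e-06, edgeR) and rose by 2.42 (SE 0.18, adjusted p = 1.98e-10). LOC109104388 (eIF5A) had at most 2.72 CPM on average, in the larva. LOC109055100 (eIF5B, the GTPase of subunit joining) fell by 0.58 at gastrulation and by 1.58 from cleavage to larva.

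eIF6 keeps the ribosomal subunits apart. Under TMM scaling its 3 genes were summed at 68.2 ± 2.56 CPM at the blastocyst stage, 162 ± 3.14 at gastrulation and 66.0 ± 6.39 at hatching. Only 1 of the 3 rose at gastrulation under all 3 scalings, where 30% of all features did. LOC109066510 stood at 21.3, 21.6 and 23.0 CPM at the blastocyst stage, at 63.4, 59.8 and 64.5 at gastrulation and at 26.3, 23.8 and 29.2 at hatching. It rose by 1.51 (SE 0.11, adjusted p = 1.09e-10, edgeR) at gastrulation and fell by 0.86 (SE 0.11, adjusted p = 4.1e-06) at hatching. LOC109107699 and LOC109107337 fell by 0.55 and 0.60 from cleavage to larva.

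Products annotated on exactly 2 genes could be followed as pairs. The log2 ratio of RPKM between copies varied most over stages for eIF3h form H-B, with LOC109108249 over LOC109111005 at 3.62 at cleavage and 0.44 at organ formation, and LOC109111005 stayed under 1 CPM on average at all stages. The eIF3d pair, LOC109076390 over LOC109082233, went from -0.01 at cleavage to -1.39 at hatching, and the eIF3e form E-A pair, LOC109105417 over LOC109106132, from -2.83 at gastrulation to -1.28 in the larva. In the eIF3e form E-B pair LOC109048886 was below LOC109111847 by between 4.23 and 5.66 on the log2 scale. Besides the copies of eIF2D, 4E-T and eIF4E-1B already named, LOC109077050 (eIF3f), LOC109047656 (eIF4G1) and LOC109050305 (eIF4G3) were not tested, with 8, 2 and 41 reads in all libraries. Reads that match near-identical copies could have been divided or dropped in the authors' counting, which makes differences between copies of 1 product less certain than those between products.

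Other genes of translation were counted by the same test, under TMM scaling. At gastrulation 9 of 10 release and recycling factor genes were called higher and 1 lower, as were 11 and 3 of 24 elongation factor genes, with 44.4% and 22.3% of all features called. At organ formation the release and recycling factors had 2 higher and 8 lower, and the elongation factors 13 higher and 2 lower, with 28.1% and 19.8% of all features called. From cleavage to larva 20 elongation factor genes were higher and 1 lower, against 58.5% and 22.5%. The 13 genes of CPE-binding proteins, which regulate stored mRNAs by their tails, had 4 higher and 6 lower at gastrulation. Of the 9 S6 kinase and mTOR genes 5 were higher and none lower there, and of 21 tested poly(A)-binding protein and PDCD4 genes 11 were higher and 5 lower. Of 13 tested genes of initiation factors under other names, such as the remaining eIF2B subunits, 3 were higher and 5 lower at gastrulation and 8 higher and 1 lower at organ formation.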

How the data were processed

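RNA from whole embryos and larvae was sequenced in 18 libraries, 3 for each of 6 stages. The submitters' processing notes name 4 tools (featureCounts, HISAT2, edgeR and StringTie 1.3.3b) without role or setting. No source used here names the genome build, and neither coordinates nor sequences are printed. The deposited table holds raw read counts per gene and RPKM made by the authors; the counts of the 18 single-library files equal those of the table. The denominators implied by RPKM differ from the library totals, which is why both were used as alternative scalings. Counting error alone limits the precision of low counts.

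The counts were fitted with edgeR 4.0.16 (R 4.3.3; filterByExpr, TMM, 1 coefficient per stage over all 18 libraries, robust quasi-likelihood test), with 5 successive comparisons, larva against cleavage, and p-values adjusted over 69265 features at 0.05. The standard error of a log2 change is its size over the square root of F. Exact tests over 3 against 3 libraries cannot go below p = 0.10 and were not used. Replicate libraries differed by more than counting noise. Alternatives were DESeq2 1.42.0, limma 3.58.1 on log2(RPKM + 1) and log2(RPKM + 0.1) for features with mean RPKM of at least 0.1, other scalings and filters, the replicate block and each library left out.

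Members and lists were chosen with earlier results of these data known. Genes named are the 3 with the highest mean RPKM per factor number, the 4 largest called rises and falls per step with at least 5 CPM at the higher stage and no overlap, maternal-only genes, all cap-binding genes, 4E-BPs, 4E-T and eIF2-alpha kinases, and the 6 most variable copy pairs. Others named, and the limit to calls under all 3 scalings, were chosen after their values were seen.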

Additional observations from a re-analysis of the deposited data

How the results depend on the processing

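The 165 single-gene changes stated with a direction kept their direction and their side of the threshold under every alternative run. They had to be called under all 3 scalings and were chosen with their values known. Some other changes called under all 3 scalings were given as levels only, such as LOC109051025 at organ formation and LOC109079413 in the larva. The agreement among the 165 therefore does not measure how robust the calls are. Counts of genes called depended on the settings. From cleavage to the blastocyst stage, 3 genes were higher with RPKM denominators, 39 with no filter, 46 with a filter of 1 CPM in 3 libraries, 3 with limma on log2(RPKM + 1) and 4 on log2(RPKM + 0.1), and 4 were lower under either filter. Over all features, 7606 of 68387 were higher with RPKM denominators, 16040 of 86471 with no filter and 13948 of 55727 with the 1 CPM filter. With limma 3488 and 4864 of 62647 were higher. Lower with no filter and with the 1 CPM filter were 2545 and 2395 features. Lower at gastrulation were 41 with library totals, 43 with RPKM denominators, and 42 and 44 with limma. All features moved too, with 21678 of 69265, 24441 of 68387, and 21530 and 22895 of 62647 lower, against 15441 of 69265 under TMM scaling. At organ formation 33, 30, 30 and 29 were lower with library totals, RPKM denominators and limma. Of all features, 9620 of 69265, 9156 of 68387, and 8808 and 9467 of 62647 were. At hatching 28 were higher with RPKM denominators and 26 and 29 with limma, and 3, 4 and 4 were lower. Of all features, 18708 of 68387 and 20401 and 20972 of 62647 were higher, and 2867, 4337 and 4019 were lower. From hatching to the larva limma on log2(RPKM + 1) gave 7 higher, and 9031 of 62647 features. Lower there were 9 with library totals, 2 with RPKM denominators, 11 with no filter, 9 with the 1 CPM filter, 11 with only both stages fitted, and 5 and 2 with limma. Of all features, 3157 of 69265, 1890 of 68387, 3363 of 86471, 3449 of 55727 and 5053 of 60585 were lower, and 4022 and 3200 of 62647 with limma. Maternal-only genes numbered 4 with a limit of 25% and 2 with the limit from organ formation on. The cause of these differences was not tested.

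Leaving out 1 library at a time gave 14 to 44 higher and 3 to 23 lower from cleavage to the blastocyst stage, 75 to 80 and 26 to 34 at gastrulation, 23 to 37 and 46 to 55 at organ formation, 6 to 13 and 22 to 39 at hatching, 0 to 4 and 3 to 23 in the larva, and 61 to 68 and 30 to 40 from cleavage to larva. Over all features, with 71376 to 72412 tested, it gave 8706 to 16185 higher and 2289 to 5092 lower at the blastocyst stage. At gastrulation these were 26935 to 31928 and 14849 to 17735, and at organ formation 15938 to 20429 and 12274 to 14859. At hatching they were 9807 to 13022 and 5970 to 9207, in the larva 1712 to 4449 and 2375 to 4778. From cleavage to larva they were 39442 to 41843 and 14773 to 16668. Leaving out 1 library gave 120 to 126 initiation factor genes differing among stages, against 123, and 1 maternal-only gene each time. Same-numbered libraries did not deviate together: of 45 pairs, 2 had a correlation above 0.1, and the median was -0.011. With the replicate block the counts were 15 higher and 18 lower at the blastocyst stage, 78 and 26 at gastrulation, 36 and 52 at organ formation, 10 and 32 at hatching, 4 and 17 in the larva, and 66 and 33 from cleavage to larva. Over 69265 features, in the same order, they were 10009 and 4094, 30291 and 15093, 18671 and 13268, 11428 and 7791, 3020 and 3878, and 40277 and 15276.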
